A study of Homo sapiens with 15 samples.

Results

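The genes described here are the 7 insulin-like growth factor binding proteins, IGFBP1 to IGFBP7, and the 3 receptors of the insulin and insulin-like growth factor (IGF) family, IGF1R, IGF2R and INSR. They were taken by name from the deposited table of read counts, where they are 10 of 19143 rows, and each was followed through all 15 libraries. The cells were MHCC-97H, a human line of hepatocellular carcinoma, the main cancer of liver cells. A first experiment compared 3 libraries of the line grown in a 2D model, 3 from a 3D model and 3 from an animal model. A second compared 3 untreated libraries of the 3D model, called 3D controls below, with 3 heat-treated ones. Per its title and design text, the study asked what a 3D setting gives to the cells and how they resist heat, with SP1, IL4I1 and AHR as its axis. No group carries a labelled transgene, knockdown or drug. The labels name neither the host animal, the matrix of the 3D model, the temperature nor the duration of heating. They call the libraries biological replicates without saying that they are separate cultures or animals, so the p-values cover only the library-to-library spread seen here, which may be technical.

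IGF-I and IGF-II are small growth factors related to insulin. In blood and tissue fluid most of each is held by an IGF binding protein, which lengthens its life and keeps it from, or brings it to, the receptors. IGF1R and INSR are tyrosine kinase receptors that pass the signal through adaptors to the PI3K, AKT and mTOR pathway and to the MAP kinases. IGF2R, which also carries mannose 6-phosphate tagged enzymes to lysosomes, takes up IGF-II and delivers it for breakdown. Liver cells are the main source of circulating IGF-I and of IGFBP1, whose gene is switched off by insulin through FOXO factors. IGFBP7 binds IGFs weakly and is best known from blood vessel walls and connective tissue.

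Levels are in CPM, the deposited read counts scaled to a common library size with TMM factors over the 15 libraries, and are written as a group's mean ± SD (n = 3). Fold changes, their standard errors (SE) and adjusted p-values come from edgeR's quasi-likelihood test with Benjamini-Hochberg adjustment over all genes tested, and a gene was called at an adjusted p below 0.05. Total counts ran from 12605539 to 18634295 per library. The first and second 3D replicates and heat replicate 1 stood apart. Gene by gene, their difference from the 2D mean was correlated with the GC content of the transcripts (rank correlation 0.593 to 0.797), where the remaining 12 libraries gave -0.184 to 0.226. The TMM factors were 0.655 to 0.738 in those 3 libraries and 0.98 to 1.28 in the rest. This bears on IGFBP2, IGFBP4 and IGFBP6, whose transcripts hold 67.7, 62.5 and 64.1% GC, against 49.0 to 52.1% for the other 7 genes. Within the 3D and the heat group, each of these 3 GC-rich transcripts was highest in the libraries that stood apart. Of 12 chosen markers of hepatocytes and liver cancer lines, KRT8 measured 2950 to 3042 CPM and HNF4A 81.3 to 87.6 CPM in 2D. The hepatocyte products ALB, at 2.11 to 2.56 CPM, and APOA2, at 0.158 to 0.213 CPM, were near 0. AFP, TF and TTR were low too, with 113, 36 and 9 reads over the 2D group, where KRT18 had 39252 and APOB 1348.

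Upstream sequences are shown for 3 genes that the results below turn on: the binding proteins IGFBP3 and IGFBP5, which rose in 3D, and the receptor IGF2R. Each line gives the 250 bases before the gene's start, 5′ to 3′ on the gene's strand, from RefSeq on GRCh38.p14. The bases after that start were found in a GENCODE 29 transcript for IGFBP3 and IGF2R, but not for IGFBP5 or INSR. That table holds 8 of the 10 genes, without IGFBP1 and IGFBP7. IGFBP3 lies at chr7:45921273-45921522 on the minus strand, IGFBP5 at chr2:216695550-216695799 on the minus strand and IGF2R at chr6:159968832-159969081 on the plus strand. Capitals mark matches on either strand to GGGCGG (the GC box that SP1 binds), GCGTG (the core that AHR binds), ACGTG (the core that hypoxia-inducible factors bind), CACGTG (the E-box, which contains ACGTG on both strands) and TATAAA.
IGFBP3: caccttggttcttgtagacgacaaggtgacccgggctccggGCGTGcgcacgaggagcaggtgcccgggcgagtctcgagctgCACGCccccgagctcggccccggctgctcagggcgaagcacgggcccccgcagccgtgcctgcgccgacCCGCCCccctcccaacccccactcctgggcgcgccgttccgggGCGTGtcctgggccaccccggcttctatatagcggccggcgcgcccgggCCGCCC
IGFBP5: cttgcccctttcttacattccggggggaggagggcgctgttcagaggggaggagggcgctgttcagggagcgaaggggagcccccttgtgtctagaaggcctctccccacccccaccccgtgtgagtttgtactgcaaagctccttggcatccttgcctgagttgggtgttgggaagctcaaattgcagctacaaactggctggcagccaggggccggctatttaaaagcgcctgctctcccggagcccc
IGF2R: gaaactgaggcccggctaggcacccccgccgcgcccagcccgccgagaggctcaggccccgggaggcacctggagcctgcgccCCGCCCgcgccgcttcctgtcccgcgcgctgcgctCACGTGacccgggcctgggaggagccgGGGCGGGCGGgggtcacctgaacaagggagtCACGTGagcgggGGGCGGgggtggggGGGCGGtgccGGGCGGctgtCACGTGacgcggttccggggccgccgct
The IGFBP3 window held GCGTG 3 times and GGGCGG 2 times, and the IGFBP5 window held none of the searched words. The IGF2R window held CACGTG 3 times, beginning 132, 74 and 28 bases before the start, and GGGCGG 6 times, with 2 of these overlapping. Among 27305 promoter windows of this length, 42.3% held GGGCGG, 31.9% GCGTG, 18.7% ACGTG, 6.49% CACGTG and 11.1% TATAAA. Of the remaining genes, IGF1R held GCGTG 4 times, GGGCGG 2 times and ACGTG 1 time, INSR held GGGCGG 4 times, IGFBP4 held GGGCGG and TATAAA 1 time each, and IGFBP2 and IGFBP6 held GGGCGG 1 time each. A match is a description of the letters and not of a bound site.

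In the 2D libraries the family was dominated by IGFBP4, a binding protein that mostly blocks IGF action at the cell. Per kilobase of the longest coding transcript, the scale on which genes can be compared, its level was 89.7 ± 3.12 CPM per kb. IGF2R followed at 27.6 ± 1.53, IGFBP1 at 20.7 ± 2.06, IGFBP2 at 16.9 ± 1.40 and IGFBP3 at 12.6 ± 2.53 CPM per kb. The signalling receptors INSR and IGF1R were nearly equal, at 7.25 ± 0.191 and 7.14 ± 0.463 CPM per kb. IGFBP5 and IGFBP7 were the scarcest, at 0.327 ± 0.0997 and 0.0745 ± 0.0375 CPM per kb. IGFBP4 thus made up 62.0 ± 1.89% of the summed binding protein level in 2D, and IGFBP3 made up 8.68 ± 1.74%.

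That make-up differed between the groups. The summed level of the 7 binding proteins was 140 to 149 CPM per kb in 2D, 618 to 816 in 3D, 249 to 347 in the animal libraries and 400 to 441 in the 3D controls, so these groups did not overlap one another. After heat it spread from 112 to 364 CPM per kb. The share of IGFBP3 was 28.1 ± 14.2% in 3D, 28.0 ± 13.1% in the animal libraries and 33.7 ± 2.61% in the 3D controls. IGFBP4 took 41.2 ± 15.4% in 3D, 31.9 ± 1.01% in the 3D controls and 23.7 ± 5.39% in the animal libraries. IGFBP5 reached 7.94 ± 4.38% in the animal libraries and averaged 0.168 to 0.737% in the other groups. These shares are descriptions, and the tests below are on each gene.

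**Figure D1:**
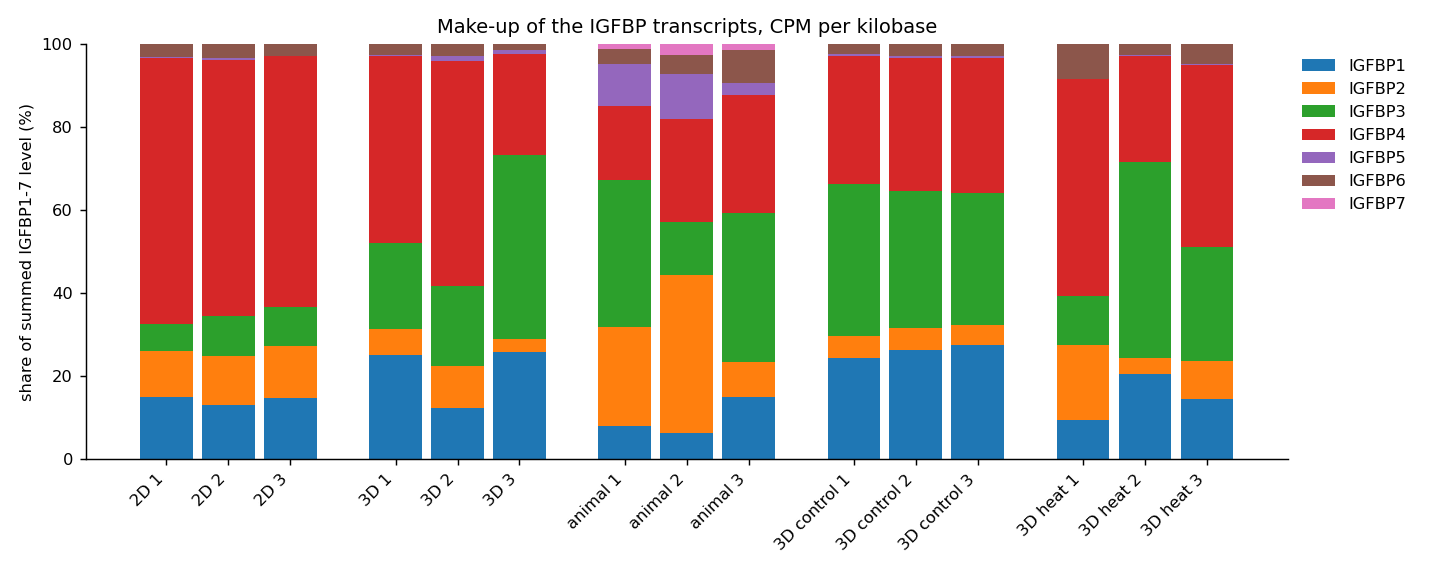
Share of each binding protein transcript in the summed IGFBP1 to IGFBP7 level (y axis, %, from CPM per kilobase) in each of the 15 libraries (x axis). IGFBP4 makes up 60.3 to 64.0% of the bars in 2D, and IGFBP3 makes up 31.6 to 36.7% in the 3D controls.

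Of the 10 genes, 5 were called higher in 3D than in 2D and 0 lower, all 5 of them binding proteins: IGFBP1, IGFBP3, IGFBP4, IGFBP5 and IGFBP6. Over all 12925 genes tested, 20.0% were called higher and 12.9% lower. At an unadjusted p under 0.05, 6 of the 10 were higher and 0 lower, beside 26.4% and 19.4% of all genes. DESeq2 called 6 higher and 0 lower, beside 26.2% and 17.4% of all genes. The median log2 fold change of the 10 was 1.56, beside 0.03 for all genes tested. IGFBP7 passed the filter on low counts only through the animal libraries. Markers of other cell types also differed between 3D and 2D. The 10 macrophage and leukocyte markers, mainly CD68, summed to 388 to 495 CPM in 3D against 103 to 109 CPM in 2D. PTPRC passed the filter only with both its 3D and its animal libraries. Of the 5 others tested, 3 (CD68, CD74 and ITGAM) were called higher and 0 lower. The 10 endothelial markers, mainly ESAM, summed to 71.2 to 129 CPM against 48.1 to 60.7 CPM, with 2 of 4 tested (ENG and ESAM) called higher and 0 lower. KDR and TEK had log2 differences of -0.57 and -1.94 (adjusted p = 0.471 and 0.0748 in edgeR). Of 6 fibroblast and pericyte markers, 0 were called higher and 2 lower. In 3D, AIF1, EMCN and ERG were at 0, and the part of these markers' cells in the binding protein levels was not tested.

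IGFBP3, the main carrier of IGFs in serum, measured 23.3, 33.0 and 34.5 CPM in 2D and 405, 286 and 871 CPM in 3D (replicates 1, 2 and 3). The lowest 3D library lay far above the highest 2D library. The difference was 16.9-fold, or 4.08 ± 0.53 on the log2 scale (SE), with an adjusted p of 0.00168 in edgeR. Its call held under 16 of 16 alternatives, with log2 values from 3.45 to 4.84. Such tallies, in both comparisons with 3D, count a fit that leaves 1 library in 3D, whose call is no separate evidence.

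IGFBP1, the short-lived binding protein that insulin represses in liver, measured 36.0, 30.2 and 36.3 CPM in 2D against 336, 126 and 348 CPM in 3D. The groups did not overlap, and 3D replicate 2 was the low one of its group. IGFBP1 was 7.75-fold higher in 3D (log2 2.95 ± 0.41, adjusted p = 0.00199 in edgeR). On chromosome 7 it is the neighbour of IGFBP3, which lies on the opposite strand. Within the 3D group both were lowest in replicate 2 and highest in replicate 3. They also shared their lowest library in the animal group and after heat, but not in 2D or in the 3D controls.

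IGFBP5, a binding protein of the extracellular matrix that can strengthen or block IGF action, was near the bottom of the range in 2D at 1.60, 2.74 and 1.76 CPM. In 3D it measured 9.70, 44.4 and 43.5 CPM, above every 2D library although replicate 1 was low. IGFBP5 was 15.6-fold higher (log2 3.96 ± 0.77, adjusted p = 0.00667 in edgeR). IGFBP4 measured 204, 190 and 198 CPM in 2D and 812, 738 and 433 CPM in 3D, a 3.25-fold rise (log2 1.70 ± 0.25, adjusted p = 0.00258). After an offset for GC content and length it remained called, at 0.68 (adjusted p = 0.0169). Without 3D replicates 1 and 2 the difference was 1.13. That leaves 1 library in 3D, which the fit assumes to vary like the other groups, so its p-values are not given.

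IGFBP6, which prefers IGF-II over IGF-I, measured 5.38, 5.59 and 4.81 CPM in 2D and 25.3, 21.2 and 14.9 CPM in 3D. It was 3.77-fold higher (log2 1.92 ± 0.28, adjusted p = 0.00237 in edgeR), and the groups did not overlap. With the GC and length offset the log2 difference was 0.60 and the call ended (adjusted p = 0.105). Against 3D replicate 3 alone it was 1.49. IGFBP2, a binding protein often abundant in fetal tissue and tumours, measured 22.8, 23.6 and 26.6 CPM in 2D and 75.2, 90.1 and 35.7 CPM in 3D. Its log2 difference of 1.41 ± 0.57 missed the threshold (adjusted p = 0.0866 in edgeR). DESeq2 called it (adjusted p = 0.0220), whereas the log2 difference was 0.03 after the GC and length offset and 0.55 with 3D replicate 3 alone. IGFBP7 had only 1 to 3 reads in each 2D and 3D library (adjusted p = 0.620).

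**Figure D2:**
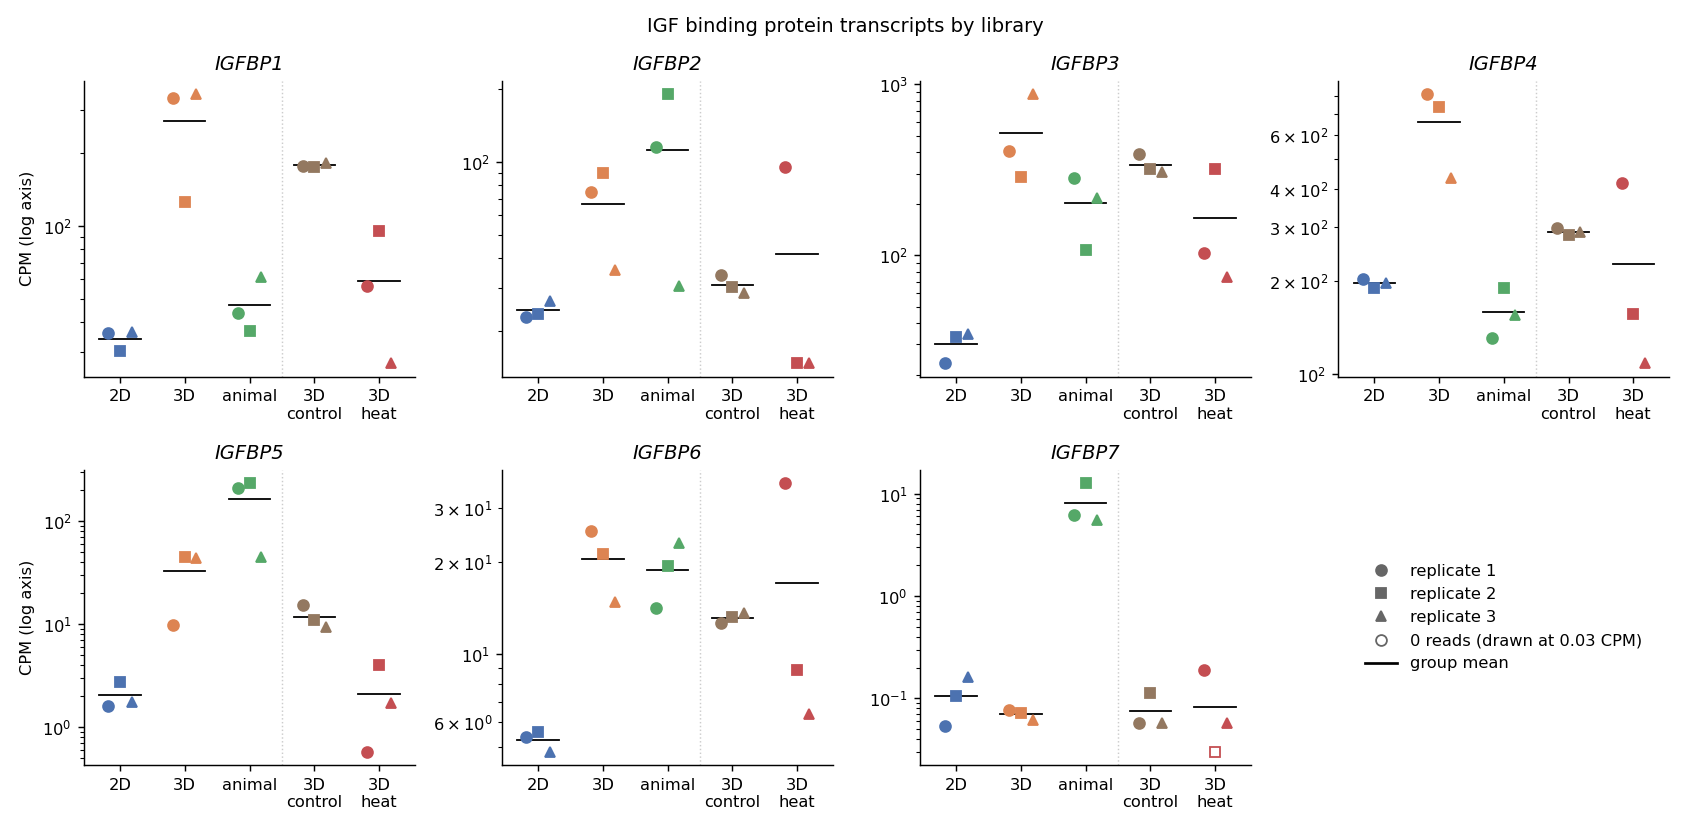
Level of each binding protein transcript (y axis, CPM, log axis) in the 5 groups (x axis). Each point is 1 library, bars are group means, and the dotted line parts the 2 experiments. IGFBP3 lies at 23.3 to 34.5 CPM in 2D and 286 to 871 in 3D, and IGFBP7 is at or below 0.191 CPM outside the animal libraries.

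The 3D controls of the second experiment hold the same model as the 3D group, but experiment and group cannot be told apart when they are set beside 2D, so no test was made. For 8 of the 10 genes every 3D control lay above every 2D library, and for 0 every one lay below. Over 13227 genes, 32.2% lay wholly above and 33.1% wholly below. IGFBP3 measured 390, 317 and 306 CPM in the 3D controls, 11.2 times the 2D mean. IGFBP1 measured 177, 174 and 182 CPM, 5.20 times the 2D mean, and IGFBP5 measured 15.3, 10.9 and 9.28 CPM, 5.81 times the 2D mean. The GC-rich genes were closer to 2D in these libraries, with IGFBP4 at 298, 283 and 288 CPM (1.47 times), IGFBP2 at 34.0, 30.5 and 28.6 CPM (1.28 times) and IGFBP6 at 12.6, 13.2 and 13.7 CPM (2.50 times). IGFBP7 and IGF2R overlapped with 2D.

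In the animal libraries, IGFBP2, IGFBP3, IGFBP5 and IGFBP6 were called higher than in 2D and IGF2R lower, 4 and 1 of 9 genes. The remaining gene, IGFBP7, passed the filter only through the animal libraries where it is high, so it had to differ, and its call is counted in no result below. Of all genes tested, 7.78% were called higher and 4.25% lower. The median log2 fold change of the 9 was 0.46, beside 0.03 for all genes. These are bulk libraries, in which fewer cells of a type and less RNA per cell cannot be told apart.

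IGFBP5 showed the widest range of group means among the 10 genes, 6.22 on the log2 scale. It measured 210, 233 and 44.8 CPM in the animal libraries, and all 3 lay above every cell culture library, the third by a narrow margin over 3D. Against 2D it was 79.6-fold higher (log2 6.31 ± 0.85, adjusted p = 0.00235 in edgeR), called under 15 of 15 alternatives. IGFBP2 measured 115, 190 and 30.6 CPM, a 4.59-fold rise over 2D (log2 2.20 ± 0.59, adjusted p = 0.0415). Only 8 of 15 alternatives kept that call. On leaving out a 2D library, animal replicate 1 or animal replicate 2, the adjusted p was 0.112 to 0.149. IGFBP2 and IGFBP5 are neighbours on chromosome 2, on opposite strands, and both were lowest in animal replicate 3. They also shared their lowest library in 2D and in the 3D controls, but not in 3D or after heat. Heat replicate 1 was the highest of its group for IGFBP2, at 95.5 CPM, and the lowest for IGFBP5, at 0.573 CPM.

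IGFBP3 measured 284, 108 and 215 CPM in the animal libraries, 6.67-fold above 2D (log2 2.74 ± 0.50, adjusted p = 0.00851 in edgeR). That call ended without 2D replicate 1 (adjusted p = 0.0510). IGFBP6 measured 14.2, 19.3 and 23.0 CPM and was 3.58-fold higher (log2 1.84 ± 0.28, adjusted p = 0.00363), called under 15 of 15 alternatives. After the GC and length offset the log2 difference of IGFBP6 between animal and 2D was 1.76 (adjusted p = 0.00126). IGFBP1, at 43.6, 36.7 and 61.1 CPM, lay just above the 2D range without being called (log2 0.46 ± 0.38, adjusted p = 0.502). IGFBP4, at 131, 189 and 156 CPM, lay just below it (log2 -0.31 ± 0.25, adjusted p = 0.479).

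IGFBP7 was read almost only in the animal libraries. It had 1, 2 and 3 reads in the 2D libraries, 1 in each 3D library, 1, 2 and 1 in the 3D controls and 2, 0 and 1 after heat. The animal libraries had 103, 186 and 92 reads, or 6.20, 12.7 and 5.53 CPM. From pooled reads the animal level was 74.7 times that of 2D, with an exact Clopper-Pearson 95% interval of 34.0 to 205 that covers counting error only. Against 3D the ratio was 114, with an interval of 38.6 to 554. IGFBP7 overlaps POLR2B on the opposite strand in GENCODE 29. Since no strand setting is stated, reads from the overlap cannot be assigned with certainty.

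Markers of connective tissue cells were also higher in the animal libraries. The summed level of 12 fibroblast and pericyte markers was 251, 464 and 164 CPM there, against 64.8 to 69.2 CPM in 2D, 16.3 to 113 in 3D and 75.4 to 77.3 in the 3D controls. LUM made up most of the sum in 2D, with a mean of 51.9 CPM, and averaged 55.4 CPM in the animal libraries. Of 6 markers that passed the filter, ACTA2 and COL1A2 passed it only through the animal libraries. Of the other 4, 3 were called higher than in 2D and 0 lower, beside 7.78% and 4.25% of all genes. THY1 was at 0 in every animal library. COL1A1, a chain of type I collagen, measured 120, 244 and 59.8 CPM in the animal libraries against 3.90 to 4.21 CPM in 2D (adjusted p = 0.000905 in edgeR). COL3A1 and COL1A2 reached 65.8 and 36.7 CPM in animal replicate 2. That library was the highest for the marker sum, for IGFBP7, for IGFBP5 and for IGFBP2, and the lowest for IGFBP3. The part of these cells in the binding protein levels was not tested.

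Some markers of other cell types were called higher in the animal libraries as well. The 10 endothelial markers, again mainly ESAM, summed to 48.2 to 69.4 CPM in the animal libraries and 48.1 to 60.7 CPM in 2D, below every 3D library, with EMCN at 0 in all 3 groups. KDR, an endothelial receptor, was called higher than in 2D (adjusted p = 0.0131 in edgeR) at 4.27 to 15.1 CPM. TEK, at 0.749 to 1.56 CPM, passed the filter only through the animal libraries. The 10 macrophage and leukocyte markers summed to 165 to 220 CPM in the animal libraries, above 2D but below the 388 to 495 CPM of 3D and the 228 to 246 CPM of the 3D controls, with TYROBP at 0. LYZ passed the filter only through the animal libraries, and PTPRC only with both the animal and the 3D libraries. Of the other 4, 3 were called higher than in 2D, led by CD74 and ITGAM, and 0 lower. Among markers of hepatocytes and liver cancer lines, APOA1 passed the filter only through 2D, where it was higher. Of the 10 others tested, 5 were called higher than in 2D and 1 lower, beside 7.78% and 4.25% of all genes. TF, ALB and FGB led these, and ALB reached 90.9 to 283 CPM.

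**Figure D3:**
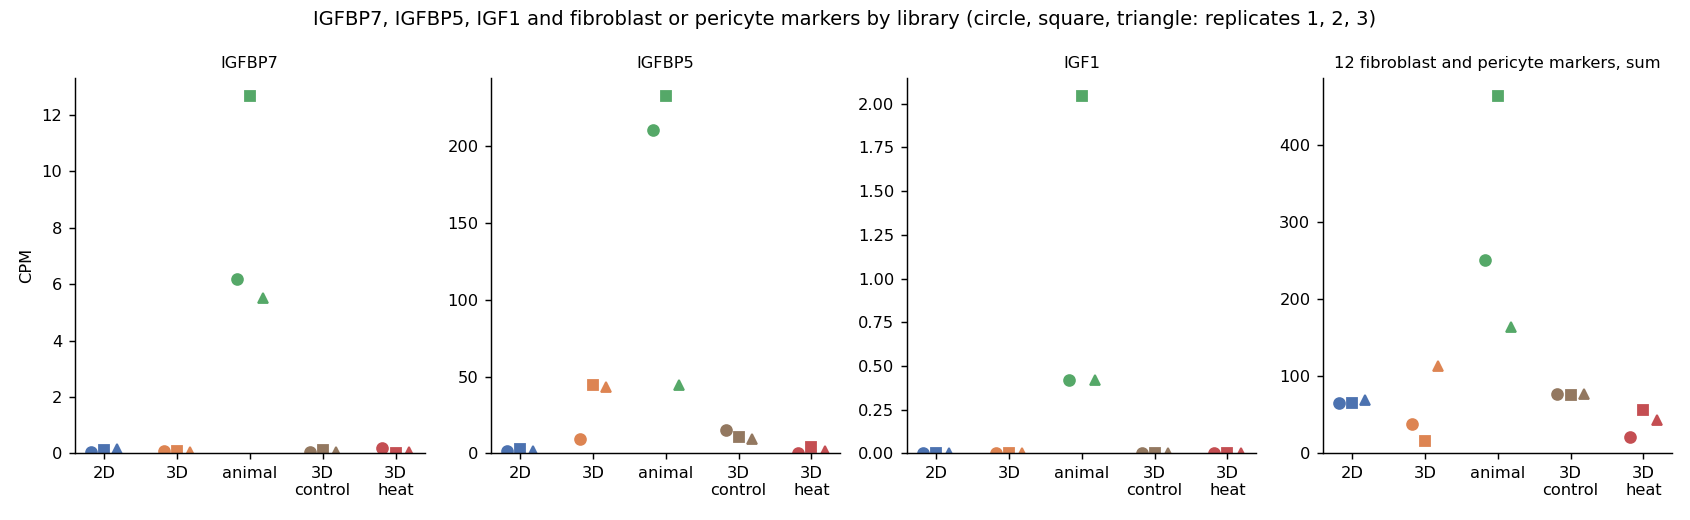
Levels (y axes, CPM, linear from 0) of IGFBP7, IGFBP5, IGF1 and the sum of 12 fibroblast and pericyte markers, by group (x axis), with 1 point per library. Animal replicate 2 is highest in all 4 panels, at 12.7, 233, 2.04 and 464 CPM.

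Set against 3D, and again without IGFBP7, the animal libraries had 1 of 9 genes called higher, IGFBP5, and 3 called lower, IGFBP1, IGFBP3 and IGFBP4. Of all genes tested, 18.6% were called higher and 22.9% lower. The median log2 difference was -0.47 for the 9 genes and 0.10 for all genes, and the latter was 0.00 with median-ratio scaling and 0.21 with upper-quartile scaling. IGFBP4 was 4.04-fold lower in the animal libraries (log2 -2.01 ± 0.25, adjusted p = 0.000981 in edgeR), and IGFBP1 was 5.62-fold lower (log2 -2.49 ± 0.40, adjusted p = 0.00231). Both calls held under 16 of 16 alternatives. IGFBP4 in animal against 3D was -0.96 on the log2 scale in the smallest of them. IGFBP3 was 2.54-fold lower, with an adjusted p of 0.0482 that only 7 of 16 alternatives kept and that was 0.0883 without 3D replicate 3, its highest library. IGFBP5 was 5.10-fold higher (log2 2.35 ± 0.70, adjusted p = 0.0260), a call that 11 of 16 alternatives kept and that ended without 3D replicate 1 (adjusted p = 0.0657). Without animal replicate 1 or 2 the adjusted p of IGFBP5 was 0.0756 or 0.0836. The levels of IGFBP6 overlapped, and its log2 difference of -0.08 ± 0.27 turned to 1.16 after the GC and length offset (adjusted p = 0.00581).

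**Figure D4:**
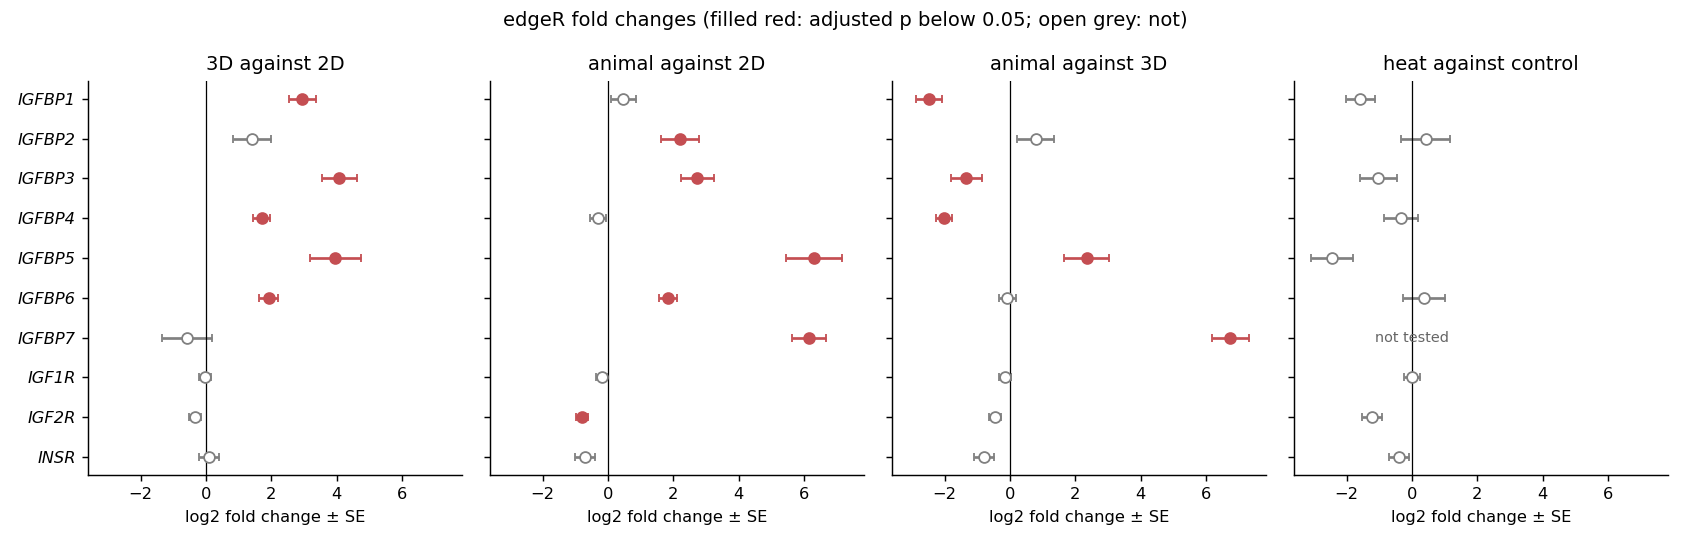
Log2 fold change (x axis) with its SE for each gene (y axis) in the 4 comparisons, from edgeR. Filled red points have an adjusted p below 0.05 and open grey points do not. IGFBP7 passed the filter only through the animal libraries, so its red points had to differ, and it did not pass in the heat comparison.

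Heat gave no call among the 9 genes tested in edgeR, with 0 higher and 0 lower. Over all 12627 genes tested, 0.00792% were called higher and 0.0158% lower. IGFBP5 passed the filter only through the controls, where it is high, so the counts by p-value leave it out. Of the other 8 genes, IGFBP1 and IGF2R were lower at an unadjusted p under 0.05 in edgeR and 0 were higher. The shares over all genes were 8.97% lower and 11.8% higher. DESeq2 called IGFBP1 and IGF2R lower, with adjusted p-values of 0.0175 and 0.00308, against 5.51% of all genes called lower by that tool. It also called IGFBP5 lower (adjusted p = 0.00230). The median log2 difference was -0.37 for the 8 genes and 0.10 for all genes. In 4 genes, IGFBP1, IGFBP5, IGF2R and INSR, every heated library lay below every control, and in 0 every heated library lay above. Over 13227 genes these shares were 18.7% below and 17.3% above.

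IGFBP1 measured 177, 174 and 182 CPM in the controls and 56.1, 94.8 and 27.0 CPM after heat, so the tight control values lay well above a wide heated group (log2 -1.58 ± 0.45, adjusted p = 0.140 in edgeR). IGFBP5 measured 15.3, 10.9 and 9.28 CPM in the controls and 0.573, 4.02 and 1.71 CPM after heat (log2 -2.44 ± 0.64, adjusted p = 0.123). It passed the filter only with its control libraries, since 2 of 3 heated ones reached the filter's level. IGF2R measured 370, 381 and 381 CPM against 107, 174 and 198 CPM (log2 -1.23 ± 0.31, adjusted p = 0.120). Heat replicate 1, one of the libraries that stood apart, was the lowest for IGFBP5 and IGF2R. Macrophage and leukocyte markers summed to 244 to 520 CPM after heat against 228 to 246 CPM, fibroblast and pericyte markers to 21.5 to 56.2 against 75.4 to 77.3 CPM, and 0 of either list were called in edgeR. The second sum was mainly LUM, with means of 28.5 CPM after heat and 61.2 CPM in the controls. DESeq2 called COL1A1 and ITGAM higher (adjusted p = 0.000764 and 0.00568) and DCN lower (adjusted p = 2.02e-06). It called 6.80% of all genes higher and 5.51% lower. CD14, also called higher by DESeq2, passed the filter only through the heated libraries. The part of these markers' cells in these levels was not tested.

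Leaving out heat replicate 1 changed the calls. Then IGFBP2, IGFBP4, IGFBP6 and IGF2R were called lower, beside 14.8% of all genes called lower. Their log2 values were -1.07, -1.13, -0.78 and -1.02, with adjusted p-values of 0.00748, 0.0132, 0.0310 and 0.00598 in edgeR. IGFBP5 was lower too (log2 -2.03, adjusted p = 0.0229). It is not counted, since it passed the reported filter only with its control libraries. IGFBP2 had measured 95.5 CPM in that library and 14.7 CPM in both others, against 28.6 to 34.0 CPM in the controls. IGFBP4 likewise stood at 418 CPM there and 156 and 108 CPM in the others, and IGFBP6 at 36.1 CPM there and 8.86 and 6.39 CPM in the others. Leaving out heat replicate 2 instead gave lower calls for IGFBP1 and IGFBP3, beside 3.58% of all genes, and for IGFBP5, again not counted. IGFBP3 had been highest in that library, at 317 CPM against 103 and 74.7 CPM.

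The receptors varied less than the binding proteins. IGF1R had the narrowest range, with group means of 76.4 ± 11.3 CPM in the animal libraries, 87.0 ± 9.88 in 3D, 87.4 ± 5.66 in 2D, 101 ± 16.7 after heat and 101 ± 3.68 in the 3D controls. Each neighbouring pair in that order overlapped. It was called in none of the 4 comparisons, where its log2 differences were -0.04 ± 0.19, -0.19 ± 0.19, -0.15 ± 0.19 and -0.00084 ± 0.24 (3D and then animal libraries against 2D, animal against 3D, and last the heated against the control libraries). The first and the last of these changed sign between alternatives.

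INSR measured 66.2, 65.6 and 63.0 CPM in 2D, 62.9, 43.1 and 105 CPM in 3D, and 45.5, 34.2 and 40.2 CPM in the animal libraries. The 3D libraries spread on both sides of 2D, and all 3 animal libraries lay below it. The animal difference was not called (log2 -0.70 ± 0.32, adjusted p = 0.199 in edgeR), nor was that against 3D (-0.79 ± 0.32, adjusted p = 0.0711). In the second experiment INSR measured 98.0, 100 and 96.0 CPM in the controls and 47.5, 93.7 and 81.6 CPM after heat, below the controls in 3 of 3 libraries and not called (log2 -0.39 ± 0.30, adjusted p = 0.474).

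IGF2R was the most abundant receptor transcript in every group, also per kilobase. It measured 380, 412 and 371 CPM in 2D, 266, 383 and 298 CPM in 3D and 238, 237 and 192 CPM in the animal libraries. Its fall of 1.74-fold from 2D to the animal libraries was called (log2 -0.80 ± 0.19, adjusted p = 0.0250 in edgeR), and the groups did not overlap. The call ended on leaving out any 1 library of the pair of groups, with adjusted p-values of 0.0589 to 0.111. The lowest group mean of IGF2R was that of the heated libraries, 160 ± 47.1 CPM, and it overlapped with the animal group. The 2D mean of 388 ± 21.5 and the 3D control mean of 378 ± 6.46 CPM were the highest and overlapped.

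**Figure D5:**
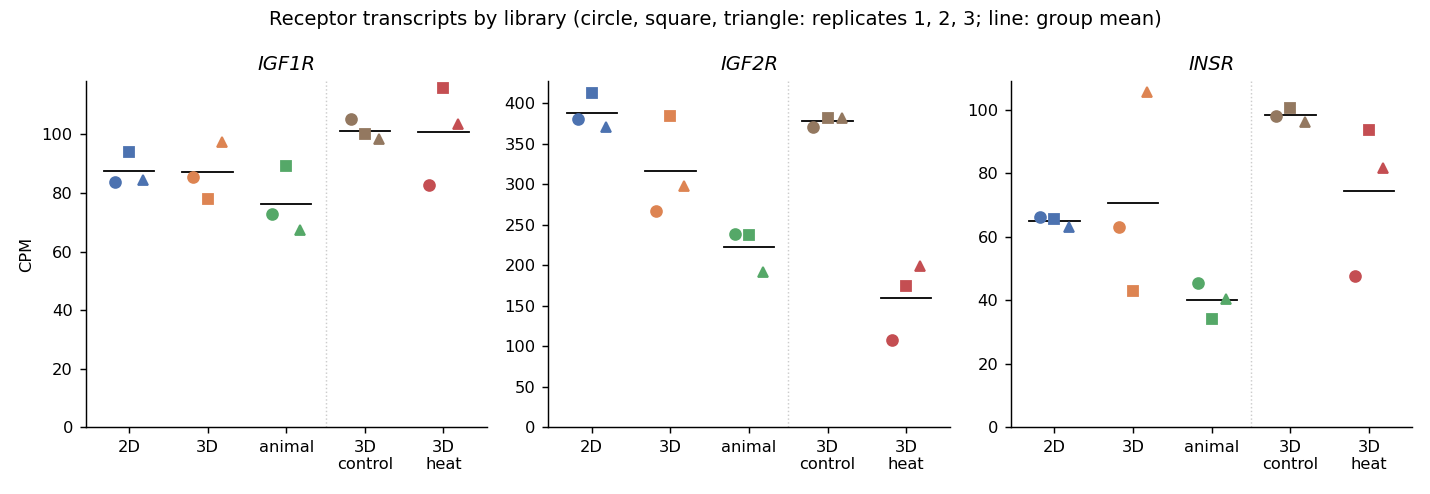
Levels of IGF1R, IGF2R and INSR (y axes, CPM, linear from 0) in the 5 groups (x axis), with 1 point per library and bars at group means. All 3 heated libraries of IGF2R lie at 107 to 198 CPM, below the controls at 370 to 381.

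Transcripts of the ligands were at or near 0. INS, the insulin gene, had 0 reads in all 15 libraries, and IGF1 had 0 reads in all 12 libraries from culture, where a count of 0 allows up to 3 reads per library. IGF1 had 7, 30 and 7 reads in the animal libraries, 0.421, 2.04 and 0.420 CPM, with the highest again in replicate 2. IGF2 measured 1.44, 1.69 and 1.12 CPM in 2D, 2.09, 0 and 0 CPM in 3D and 0, 0 and 0.0601 CPM in the animal libraries. It was not called in any comparison (adjusted p = 0.467, 0.0781, 0.0883 and 0.876 in edgeR, in the order given above). IGF2 passed the filter only through 2D in the first experiment and only through the controls in the second. Those were the groups where its mean was highest.

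Other proteins that handle IGFs outside the cell were followed in a list of 11 genes with the ligands, the acid-labile subunit and binding protein proteases. IGFALS, the subunit that joins IGFBP3 or IGFBP5 and an IGF in a long-lived serum complex, measured 1.32, 3.56 and 1.47 CPM in 3D against 0.0534 to 0.213 CPM in 2D, and it passed the filter only through 3D. Of 5 genes that did not pass only through the higher group, 1 was called higher in 3D and 0 lower. That gene, STC1, a secreted inhibitor of the IGFBP4 protease PAPPA, measured 0.145 to 0.859 CPM in 3D (adjusted p = 0.0463 in edgeR), a call that 7 of 15 alternatives kept. PAPPA itself had 0 reads in the 3D group, 3 in the 2D group and 4 in the animal group. In the animal libraries STC1 measured 1.70 to 4.51 CPM against 0 to 0.107 CPM in 2D, but it passed the filter only through them. Of 5 others, 0 were called higher than in 2D and 1 lower. HTRA1, a serine protease that cuts binding proteins, was 8.45-fold lower (adjusted p = 0.00363) at 1.20 to 3.88 against 17.3 to 18.7 CPM. Against 3D, HTRA1 and PAPPA2, a protease of IGFBP3 and IGFBP5, were called lower (adjusted p = 0.00133 and 0.0248) and 0 of the 5 higher. The median log2 difference of the genes so counted was 0.53, -0.27 and -3.33 in these comparisons, beside 0.03, 0.03 and 0.10 for all genes. The shares of all genes called were 20.0, 7.78 and 18.6% higher and 12.9, 4.25 and 22.9% lower, in the same order.

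Among 14 tested adaptors and regulators of the receptors, 2 were called higher in 3D than in 2D and 4 lower, beside 20.0% and 12.9% of all genes. CBL, an ubiquitin ligase for activated receptors, fell by 1.08 on the log2 scale (adjusted p = 0.0111 in edgeR), and GIGYF2, a partner of GRB10, fell by 0.68 (adjusted p = 0.0133). The GIGYF2 call held under 11 of 16 alternatives, and its log2 value was -0.06 with the GC and length offset (adjusted p = 0.838). The phosphatases PTPN11 and PTPN1 were lower too (adjusted p = 0.0207 and 0.0225), called under 11 and 10 of 16 alternatives. The 2 higher genes, named after their values were seen, were GRB10, an inhibitory adaptor (adjusted p = 0.0322), and GIGYF1 (adjusted p = 0.0471). In animal against 2D, GRB14, another inhibitory adaptor, was 3.61-fold higher (adjusted p = 0.0323) and GRB2 and CBL were lower (adjusted p = 0.0443 and 0.0460). These 3 calls held under 9, 5 and 5 of 15 alternatives. In animal against 3D, GRB14 and PTPN11 were called higher and SHC1 and GRB2 lower, with SHC1 and GRB14 called under 16 of 16 alternatives. Over all genes, 7.78% were called higher and 4.25% lower in animal against 2D, and 18.6% and 22.9% in animal against 3D. The list's median log2 difference was -0.20, -0.27 and -0.27.

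The 3 IGF2BP genes encode RNA-binding proteins named for binding IGF2 mRNA. IGF2BP1 was lower in 3D than in 2D (log2 -0.55, adjusted p = 0.0306 in edgeR) and IGF2BP2 higher in animal than in 3D (log2 0.74, adjusted p = 0.0436). IGF2BP1 kept its call under 8 of 16 alternatives and was -0.26 with the GC and length offset (adjusted p = 0.192). IGF2BP2 kept its call under 7 of 16 and was 0.25 with 3D replicate 3 alone. Of the 23 genes of the PI3K, AKT and mTOR arm, 4 were called higher and 3 lower in 3D against 2D. Over all genes tested, 20.0% were called higher and 12.9% lower, so the arm was near these shares. DEPTOR, an inhibitory part of the mTOR complexes, was 6.20-fold higher (adjusted p = 0.00506) at 5.75 to 14.6 against 1.17 to 2.01 CPM. FOXO4, a transcription factor that AKT inactivates, was 3.23-fold higher (adjusted p = 0.00281), and MTOR and PDPK1, a kinase that activates AKT, were lower (adjusted p = 0.0162 and 0.0179). DEPTOR and FOXO4 were called under 16 of 16 alternatives, MTOR under 11 and PDPK1 under 12. In animal against 2D, DEPTOR alone was called, 8.16-fold higher (adjusted p = 0.00453), beside 7.78% higher and 4.25% lower over all genes. In animal against 3D, 2 were called higher and 4 lower, beside 18.6% and 22.9% of all genes. Among the lower were FOXO4, RPTOR and PIK3R2 (adjusted p = 0.00514, 0.00975 and 0.0128). EIF4EBP1 was called lower in that comparison (adjusted p = 0.0429), but its log2 value of -1.12 became 0.40 after the GC and length offset and 0.17 with 3D replicate 3 alone. The arm's median log2 difference was -0.55, -0.14 and 0.36.

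Of 15 genes known to respond to FOXO factors, 11 passed the filter in the first experiment. In 3D against 2D, 1 was called higher and 1 lower, beside 20.0% and 12.9% of all genes. CITED2 was 3.77-fold higher (adjusted p = 0.00285 in edgeR) and GADD45A 2.10-fold lower (adjusted p = 0.00634). In animal against 2D, 2 were higher, PDK4 at 6.18-fold (adjusted p = 0.0134) and TXNIP at 1.95-fold (adjusted p = 0.0320, called under 7 of 15 alternatives), and GADD45A was again lower (adjusted p = 0.0111). In animal against 3D, BCL2L11 and PDK4 were higher and CITED2 lower (adjusted p = 0.0153, 0.0248 and 0.00410). PDK4 kept that call under 8 of 16 alternatives, and its log2 value of 1.74 was 0.47 with the GC and length offset (adjusted p = 0.469). Beside these calls, 7.78% of all genes were called higher and 4.25% lower in animal against 2D, and 18.6% and 22.9% in animal against 3D. The list's medians were 0.45, 0.36 and 0.00 on the log2 scale.

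After heat, 0 genes of any of these 5 lists were called in edgeR. At an unadjusted p under 0.05, 4 of 12 tested FOXO-regulated genes were higher and 0 lower, beside 11.8% and 8.97% of all genes, and DESeq2 called 3 of the list higher and 0 lower, beside 6.80% and 5.51% of all genes. The 3 were named after their values were seen: IRS2, the main insulin receptor substrate of liver, TRIB1, a scaffold pseudokinase, and the cell death gene BCL2L11. BCL2L11 measured 29.8 to 30.7 CPM in the controls and 48.0, 70.1 and 87.7 CPM after heat (adjusted p = 0.116 in edgeR and 0.00291 in DESeq2). IRS2, counted among the adaptors too, measured 12.1 CPM in each control and 34.8, 19.3 and 38.2 CPM after heat (log2 1.35 ± 0.32, adjusted p = 0.114 in edgeR and 0.00402 in DESeq2). TRIB1 measured 159 to 168 CPM in the controls and 703, 213 and 833 CPM after heat (adjusted p = 0.138 in edgeR and 0.00726 in DESeq2). All 3 genes were above the controls in every heated library. In the other 4 lists DESeq2 called PAPPA2 and DEPTOR lower (adjusted p = 8.7e-05 and 1.88e-05), both also chosen after their values were seen. PAPPA2 measured 4.33, 2.89 and 2.61 CPM in the controls and 0.0955, 0.581 and 0.628 CPM after heat, and it passed the filter only with its controls. DEPTOR measured 12.4, 9.13 and 9.45 CPM in the controls and 2.58, 3.15 and 1.60 CPM after heat, so neither gene's groups overlapped. The medians of the 5 lists lay between -0.63 and 0.12, beside 0.10 for all genes.

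For the 3 genes with the widest range of group means, the genes of most similar pattern were found among 12917 by the root mean square difference of centred log2 levels over the 15 libraries. For IGFBP5 they were CP, MPZL2 and AGR3, at differences of 0.884, 1.14 and 1.15, where the median over all genes was 2.57. For IGFBP7 the nearest were EDNRB and NRN1, at 0.438 and 0.456 against a median of 2.21. Since IGFBP7 was near 0 outside the animal libraries, any gene read almost only there at a like level had to lie close to it. For IGFBP3 they were ENO2, PFKFB4 and NDRG1, at 0.465, 0.556 and 0.557 against a median of 1.64.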

How the data were processed

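RNA of 15 MHCC-97H libraries was sequenced as short single-end reads on a DNA nanoball platform after random priming, per the labels' protocols. The submitters' processing notes name HISAT2 and hg19 but give no version. How reads were counted, with which annotation and strand setting, and whether reads of the host animal were removed is not given in the sources used here. The authors deposited raw read counts per gene symbol for 19143 rows, 1443 of them 0 in every library. In 27 rows the symbol had become a calendar date (0.1676% of counts), and 4 rows share a name. These rows stayed in library sizes and were never named.

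These counts were tested with edgeR 4.0.16 (R 4.3.3): filterByExpr by group, TMM, and robust quasi-likelihood fits, 1 to the 9 first-experiment libraries and another to the 6 of the heat experiment. Alternatives were DESeq2 1.42.0, median-ratio (RLE) and upper-quartile scaling, no filter, a stricter filter (at least 10 reads throughout a group), a block for replicate number, fits to only the groups compared, all 15 libraries in 1 fit, an offset for transcript GC content and length (GENCODE 29, matched for 99.1% of tested genes), and leaving out libraries. Methods were tested on simulated counts. The SE is the log2 fold change divided by the root of the F statistic.

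The 10 genes, the pathway lists and the marker lists were chosen with earlier results of these data known. Named beside the 10 are up to 4 called genes per pathway list and comparison with the smallest adjusted p, the ligands, up to 3 genes per marker list, and the 3 genes of most similar pattern for each of the 3 genes with the widest range, of which 1 is not reported here. M6PR was not analysed here. Of the marker lists, the 12 fibroblast and pericyte, 10 endothelial, 10 macrophage and leukocyte and 12 hepatocyte and liver cancer line genes were summed in CPM. Intervals and floors cover counting error only, since the protocols mention no molecular identifiers.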

Additional observations from a re-analysis of the deposited data

How the results depend on the processing

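The counts of called genes among the 10 stayed within 1.5 times the reported ones in 96 of 122 alternatives. These counts include IGFBP7, which passed the filter only through the animal libraries, in both animal comparisons. They also include IGFBP5 with heat, where it passed only through the controls in the reported fit. Without 3D replicates 1 and 2 the 3D group is 1 library and the spread comes from the remaining groups, so the calls of that fit are not given. They remain within the tallies of alternatives here and above. In 3D against 2D (reported 5 and 0), leaving out 1 library gave 5 to 6 higher and 0 to 0 lower. In animal against 2D, leaving out 1 library gave 3 to 5 higher and 0 to 0 lower (reported 5 and 1), and 2 were lower with only the 2 groups compared and with the GC and length offset. In animal against 3D (reported 2 higher, 3 lower), 1 was higher with only the 2 groups, 4 with the offset, and 1 to 3 on leaving out 1 library. There 5 were lower in DESeq2, with RLE scaling and with the offset, and 2 to 4 on leaving out 1 library. With heat (reported 0), 3 were lower in DESeq2 and with all 15 libraries in 1 fit, 2 with the offset, and 0 to 5 on leaving out 1 library.

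Of 595 alternative fold changes of the 10 genes, 508 kept direction and call, 30 lost the call, 33 gained one and 24 changed sign, each of the last for a gene not called in the reported fit. In 3D against 2D, IGF1R (reported -0.04) was 0.0366 in DESeq2, 0.0364 with RLE scaling, 0.0905 with the offset and 0.15 without 3D replicates 1 and 2, and -0.158 to 0.0446 on leaving out 1 library, and INSR was -0.354 to 0.358 on leaving out 1 library. IGFBP6 in animal against 3D was 0.0606 with upper-quartile scaling, 1.16 with the offset, 0.33 without 3D replicates 1 and 2 and -0.246 to 0.0973 on leaving out 1 library. With heat, the offset gave -0.47 for IGFBP2, -0.48 for IGFBP6 and 0.13 for IGF1R, and IGF1R was 0.0247 in DESeq2, 0.0241 with RLE scaling and 1.3e-05 with the stricter filter. Leaving out 1 library of the heat comparison gave -1.07 to 0.84 for IGFBP2, -0.78 to 0.78 for IGFBP6 and -0.13 to 0.12 for IGF1R. For the 48 fold changes of other named genes, 606 of 747 alternatives kept the call, 139 lost it and 2 changed sign, both for EIF4EBP1 in animal against 3D (0.399 with the offset, 0.170 without 3D replicates 1 and 2). The cause of these changes was not tested.

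Replicate numbers did not pair the libraries: correlations of same-numbered deviations were -0.2249 to 0.141, and in 2 of 12 cases over the 4 comparisons a library correlated best with that of its own number. With the replicate block, IGFBP2 and IGF2R were not called in animal against 2D (4 higher, 0 lower) nor IGFBP3 in animal against 3D (2 lower), and with heat, uncalled in both fits, IGFBP2 was -0.21 and IGFBP6 -0.0688. It changed no other call among the 10.

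Over all genes, 2586 higher and 1661 lower in 3D against 2D became 1695 and 798 with only the 2 groups. Leaving out 1 library gave 1132 to 2121 higher and 663 to 1467 lower, but 4560 and 4933 without 3D replicate 3. In animal against 2D, 1006 and 549 became 3751 and 3538 with only the 2 groups and 1630 and 2452 with the offset, and 1007 were lower in DESeq2 and 322 with the block. Leaving out 1 library gave 446 to 768 higher and 199 to 386 lower. In animal against 3D, 2406 and 2961 became 996 and 1750 with only the 2 groups, 5596 and 4536 without 3D replicate 3, and 1377 to 2141 and 1943 to 2479 without 1 of the others. With heat, 1 and 2 became 851 and 690 in DESeq2, 862 and 649 with all 15 libraries, 681 and 701 with the offset, 22 and 8 with the block, 1795 and 1896 without heat replicate 1, 585 and 460 without heat replicate 2, and 0 and 0 without any 1 of the others, while 0 were lower with RLE scaling and 1 with no filter. With heat the share of calls that were higher was 33.3%, and 55.2% in DESeq2. Depth limits IGFBP7 outside the animal libraries, IGF1 and IGF2, which had few or 0 reads.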
